A study of Mus musculus with 16 samples.

Results

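The genes described here are the lipogenic enzymes Fasn, Acaca, Acacb, Acly, Scd1, Gpam, Elovl6 and Acss2, the transcription factor gene Srebf1 and the regulator gene Thrsp, followed through perfused mouse liver with and without the kinase Perk. Their members were all probe sets that the platform annotation assigned to exactly 1 of these symbols or its synonym. That rule found 25 of the 45101 probe sets on the array, for all 10 genes, of 18194 genes that the annotation names there. Acly had 6 of them, Acss2, Thrsp and Elovl6 had 3 each, Gpam, Acaca, Acacb and Scd1 had 2 each, and Fasn and Srebf1 had 1 each. A further probe set, annotated with Acss2 and another symbol, was left out.

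Lipogenesis builds fatty acids from acetyl-CoA in the cytosol, and in the liver it turns surplus carbohydrate into triglyceride. Acly makes acetyl-CoA from citrate and Acss2 from acetate, Acaca and Acacb carboxylate it to malonyl-CoA, Fasn builds palmitate, Elovl6 lengthens it, Scd1 introduces a double bond, and Gpam attaches the first acyl chain to glycerol phosphate. The precursor of the Srebf1 product, SREBP-1, sits in the membrane of the endoplasmic reticulum, is carried to the Golgi by Scap and is cleaved there into a transcription factor that binds many of these genes, while Thrsp, also called Spot 14, is a nuclear and cytosolic protein that responds to thyroid hormone and carbohydrate.

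Perk, the product of Eif2ak3, is a kinase of the endoplasmic reticulum that phosphorylates eIF2 alpha when unfolded proteins accumulate. The study asked how livers with and without it respond to tBuHQ, a di-tert-butylhydroquinone that blocks calcium uptake into microsomes and was used to stress the endoplasmic reticulum. The labels name different isomers of the agent, the 2,5- form in the title and protocol and the 2,4- form in the design text. Knockout livers carried a deletion of Perk made by Cre recombinase under the albumin promoter (Alb/Cre Perk-/-), which is active in hepatocytes, and wild-type livers came from littermates. The 4 conditions were knockout with tBuHQ, knockout untreated, wild-type with tBuHQ and wild-type untreated, in mice 3 to 6 months old. Untreated livers were perfused as well, and the single-pass perfusion buffer contained 0.1 mM CaCl2 for all of them. For each condition RNA was taken from the polysome part of a sucrose gradient of 20 to 47%, which holds mRNA bound by several ribosomes, and from unfractionated liver. This gave 8 groups of 2 arrays, 16 in all, and RNA pooled from 2 livers went on each array, with 12 µg entering the labelling. No array reads a single animal, and p-values measure the spread between these pools.

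Promoter windows of the 5 genes that fell in wild-type liver, and of Thrsp, which did not move with them, are shown for comparison of their proximal sequence. RefSeq's table for build GRCm38.p6 holds 12 windows of 300 bases for 9 of the 10 genes, each with 250 bases before and 50 after an annotated start, and Scd1 is named only. Capitals mark the CCAAT box (letters CCAAT, or ATTGG where it lies on the other strand), the sequence bound by the factor NF-Y. Each is printed 5′ to 3′ on the strand of its gene.
Fasn, chr11:120824498-120824797, minus strand: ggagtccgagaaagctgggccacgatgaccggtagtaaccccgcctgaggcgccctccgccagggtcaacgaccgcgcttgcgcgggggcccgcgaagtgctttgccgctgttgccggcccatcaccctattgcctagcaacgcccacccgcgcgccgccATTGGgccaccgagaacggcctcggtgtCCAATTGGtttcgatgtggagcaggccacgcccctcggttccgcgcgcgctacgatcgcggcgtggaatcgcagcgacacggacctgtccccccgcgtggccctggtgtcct
Gpam, chr19:55127189-55127488, minus strand: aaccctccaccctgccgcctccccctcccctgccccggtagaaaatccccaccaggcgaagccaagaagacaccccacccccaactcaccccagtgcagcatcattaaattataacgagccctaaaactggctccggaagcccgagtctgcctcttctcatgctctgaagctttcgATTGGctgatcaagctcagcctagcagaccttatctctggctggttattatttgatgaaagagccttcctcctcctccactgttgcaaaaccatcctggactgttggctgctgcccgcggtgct
Acacb, chr5:114165268-114165567, plus strand: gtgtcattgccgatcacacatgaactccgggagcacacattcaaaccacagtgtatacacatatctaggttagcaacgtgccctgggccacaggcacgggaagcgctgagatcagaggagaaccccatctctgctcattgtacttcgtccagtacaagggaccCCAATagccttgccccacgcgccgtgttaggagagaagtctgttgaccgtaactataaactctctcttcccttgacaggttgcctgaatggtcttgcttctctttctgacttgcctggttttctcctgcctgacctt
Acss2, chr2:155517793-155518092, plus strand: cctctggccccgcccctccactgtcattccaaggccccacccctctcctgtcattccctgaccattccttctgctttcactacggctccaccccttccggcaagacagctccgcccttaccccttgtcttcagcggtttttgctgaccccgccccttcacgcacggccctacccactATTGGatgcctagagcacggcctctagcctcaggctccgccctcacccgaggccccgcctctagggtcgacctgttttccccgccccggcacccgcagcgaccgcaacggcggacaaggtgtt
Acly, chr11:100527951-100528250, minus strand: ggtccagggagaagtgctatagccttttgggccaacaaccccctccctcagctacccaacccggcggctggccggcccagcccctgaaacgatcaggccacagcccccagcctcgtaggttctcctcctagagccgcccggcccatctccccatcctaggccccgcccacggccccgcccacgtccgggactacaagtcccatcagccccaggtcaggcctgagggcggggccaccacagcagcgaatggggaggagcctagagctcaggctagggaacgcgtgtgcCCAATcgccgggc
Thrsp, chr7:97417501-97417800, minus strand: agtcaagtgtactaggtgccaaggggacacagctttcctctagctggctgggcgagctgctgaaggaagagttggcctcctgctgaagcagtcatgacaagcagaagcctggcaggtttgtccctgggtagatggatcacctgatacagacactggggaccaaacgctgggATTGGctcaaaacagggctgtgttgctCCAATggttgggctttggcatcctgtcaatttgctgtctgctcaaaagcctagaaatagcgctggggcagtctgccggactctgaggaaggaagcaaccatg
The Fasn window held 3 CCAAT boxes, with first bases at -90, -62 and -59 from the start, and the last pair overlap each other and an E box at -61. Thrsp held 2, at -79 and -52, and the Gpam, Acacb and Acss2 windows shown held 1 each, at -74, -87 and -73. Another Gpam window, chr19:55099428-55099727, is not printed and held no CCAAT box. In Acly the box lay after the start, at 38. On either strand, CCAAT stood in 8 of the 12 windows and 7 of the 9 genes, against 37.4% of the 32851 promoter windows in the table. The E box CANNTG stood in 8 windows of 6 genes, against 72.3% of all windows. None of the 12 held the SREBP site TCACNCCAC (1.24% of all windows), the E box CACGTG (7.15%), which is also read as CANNTG, or the DR4 element bound by the LXR receptor (0.0152%). A match of letters is not a bound site, and these windows do not reach more distant elements.

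Fasn spans chr11:120805958-120825166, Srebf1 chr11:60199084-60224186, Gpam chr19:55067635-55127319 and Acacb chr5:114146321-114250761 in the same build, so the Acacb window shown belongs to a start within the annotated gene. Where the probe sets lie within their transcripts was not determined.

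The arrays measured signal intensity on a linear scale, and the deposited values were scaled by the authors to a trimmed mean of 150 on each array. The 2 arrays of a group correlated over all probe sets at 0.943 to 0.975. Eif2ak3 read 26.3 to 49.2 on the 8 knockout arrays and 46.1 to 216 on the 8 wild-type arrays, with medians of 34.3 and 115, so the ranges overlapped at 1 untreated wild-type polysome array. Whether its probe set lies in the deleted part was not determined. Hepatocyte genes were high on every array, with albumin (Alb) at 13484 or more. Of 8 adipocyte markers, 3 passed the filter on dim probe sets, Fabp4 at 102 to 322, Lipe at 32.5 to 99.4 and Cidec at 9.57 to 24.8. Among the unfractionated arrays, the first knockout tBuHQ array and both untreated wild-type arrays stood apart: they correlated with each other at 0.973 to 0.975 and with the other 5 at 0.948 to 0.964. Pancreatic acinar markers summed to 2448 to 3396 on 4 arrays, those numbered 1 of untreated knockout and of wild-type tBuHQ in either fraction, against 92.7 to 335 on the other 12. The 3' to 5' signal ratio of Gapdh was 5.60 on polysome array 2 of wild-type tBuHQ, against 0.735 to 0.859 elsewhere. In bulk RNA, fewer cells of a type and less RNA per cell cannot be told apart.

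Treatment was taken from the titles of the samples. The columns of the authors' deposited table of z scores carry other treatments: all 16 of them match by value an array titled with the other treatment, of the named genotype and fraction. By the column names of that table, every tBuHQ difference given here would turn its sign, and so would the genotype difference of the tBuHQ change. Each result given here for tBuHQ livers would then belong to untreated livers of the same genotype and fraction, and the reverse. Ddit3, a gene known to be induced by stress of the endoplasmic reticulum, read 251 and 432 in wild-type tBuHQ unfractionated RNA, against 95.4 and 106.5 in untreated wild-type. It rose there by 1.57 ± 0.34 (limma, adjusted p = 0.0313). It read 144 and 214 in knockout tBuHQ unfractionated RNA, against 248 and 321 in untreated knockout. In wild-type polysome RNA it read 144 and 93.0 with tBuHQ, against 163 and 96.3 untreated. Hspa5, a chaperone of the endoplasmic reticulum named here after its values were seen, read 4981 and 9414 in wild-type tBuHQ unfractionated RNA, against 5039 and 5518 in untreated wild-type, which did not pass (0.38 ± 0.25, limma, adjusted p = 0.476). In knockout unfractionated RNA Hspa5 read 5910 and 4664 with tBuHQ, against 4914 and 5468 untreated. In wild-type polysome RNA it read 4354 and 4561 with tBuHQ, against 3193 and 2798 untreated. In knockout polysome RNA it read 3111 and 3341, against 1957 and 2215. The polysome differences, 0.57 ± 0.25 and 0.63 ± 0.25, did not pass (limma, adjusted p = 0.606 and 0.928). These genes do not settle which set of treatment names is right.

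In unfractionated RNA of wild-type liver, lipogenic mRNAs were lower with tBuHQ. Of the 10 genes, each read at its brightest probe set, 5 fell: Fasn, Gpam, Acacb, Acss2 and Acly, by 1.38 to 2.09 on the log2(signal + 16) scale. The other 5 did not pass limma's test at a Benjamini-Hochberg adjusted p of 0.05, and only Thrsp among the 10 had a positive difference. For comparison, 2.22% of the 27022 probe sets tested passed in this contrast, 2.09% of all as lower and 0.126% as higher. The median difference of the 10 genes was -1.38, beside -0.07 over all probe sets tested. At each of the 10 genes the tBuHQ and the untreated arrays did not overlap. The share of all probe sets without overlap was not determined, here or in the contrasts below. Differences of dim genes are understated on this scale.

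Both enzymes that supply acetyl-CoA fell. Acly read 1883 and 1782 in wild-type tBuHQ livers, against 4745 and 4823 in untreated wild-type livers. Its log2 difference was -1.38 ± 0.25 (SE, 2 against 2 arrays; limma, adjusted p = 0.0214). The arrays of each pair lay close to each other and the pairs lay far apart. Acss2 read 1356 and 997 with tBuHQ, against 4484 and 3818 untreated, with a difference of -1.82 ± 0.32 (adjusted p = 0.0214). A second bright Acss2 probe set fell by 1.66 (adjusted p = 0.0214), and the next brightest Acly probe sets fell by 1.29 (adjusted p = 0.024) and 1.48 (adjusted p = 0.0225).

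The synthase and 1 of the carboxylases fell. Acacb, the acetyl-CoA carboxylase placed at the mitochondrial surface, read 61.6 and 33.6 with tBuHQ and 228 and 268 untreated in wild-type livers. Its difference of -2.09 ± 0.43 passed (adjusted p = 0.0274). Acaca, the cytosolic carboxylase, read 137 and 54.9 with tBuHQ, against 292 and 225 untreated. The treated pair differed from each other by more than 2-fold, and the difference of -1.39 ± 0.43 did not pass (adjusted p = 0.1). Fasn read 647 and 434 with tBuHQ, against 2269 and 2289 untreated. It fell by 2.07 ± 0.34 on the log2 scale (adjusted p = 0.0196), the lowest adjusted p among the 10 genes.

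Of the enzymes that modify the product and pass it to glycerol, Gpam fell, while Scd1 and the brightest Elovl6 probe set did not pass. Gpam read 501 and 464 in wild-type tBuHQ livers, against 1911 and 2312 in untreated wild-type livers, a fall of 2.09 ± 0.35 (adjusted p = 0.0214). Its second, dimmer probe set gave -2.10 ± 0.58 (adjusted p = 0.0696). Scd1 read 2457 and 3613 with tBuHQ, against 5468 and 9960.2 untreated, and the -1.30 ± 0.38 did not pass (adjusted p = 0.0849). The untreated Scd1 pair was spread widely. For Elovl6 the probe sets gave different calls: the brightest read 109 and 185 with tBuHQ and 266 and 330.1 untreated, with -0.98 ± 0.36 (adjusted p = 0.167). Another of nearly equal mean brightness read 81.7 and 137 with tBuHQ, against 357 and 419 untreated, and fell by 1.72 ± 0.40 (adjusted p = 0.0395).

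Neither regulator passed, and their differences had opposite signs. Srebf1 read 1429 and 979 in wild-type tBuHQ livers, against 2192 and 2543 in untreated wild-type livers, with a difference of -0.99 ± 0.34 that did not pass (adjusted p = 0.144). Its single probe set is not assigned to the 1a or the 1c transcript in the files. Thrsp read 9957 and 10546 with tBuHQ, against 7173 and 7878 untreated, with 0.45 ± 0.28 (adjusted p = 0.436). Its second bright probe set had 0.47 ± 0.35 (adjusted p = 0.522).

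**Figure D1:**
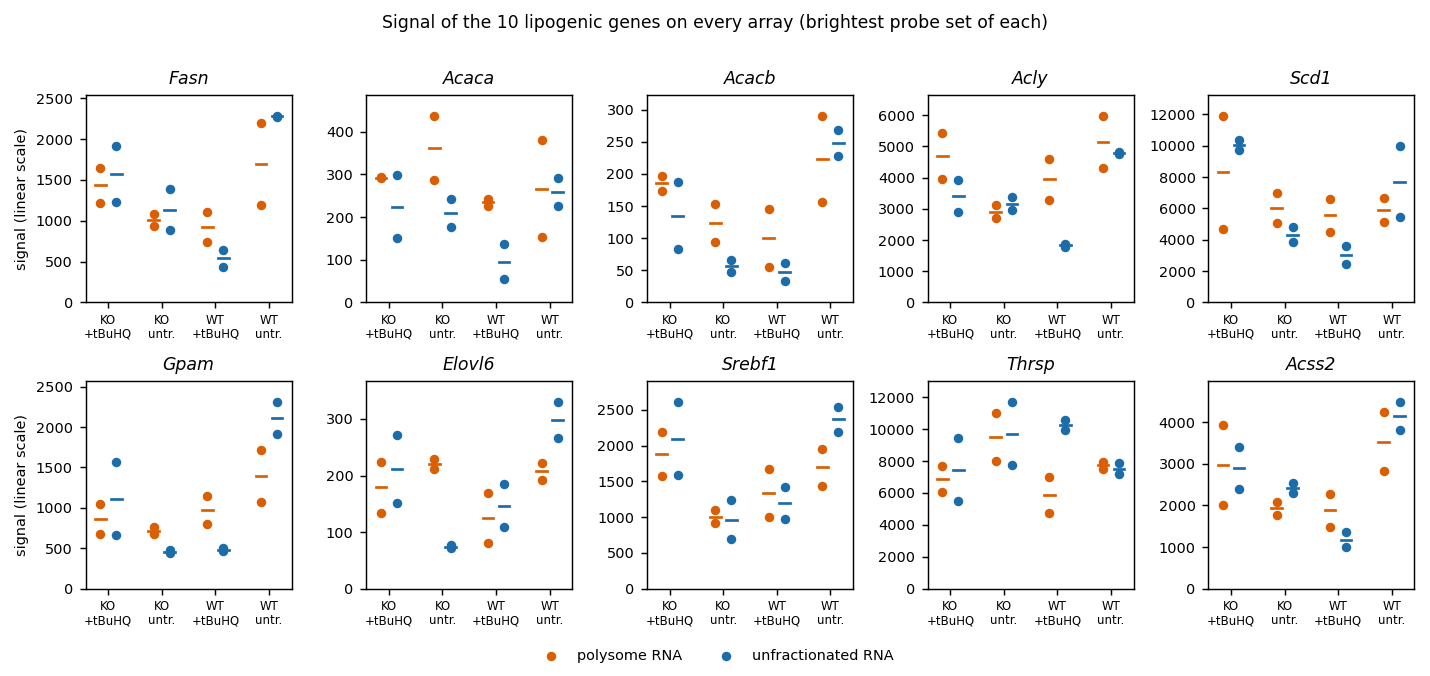
Signal (linear scale, arbitrary units) of each of the 10 genes at its brightest probe set on all 16 arrays. Points are arrays, bars are means of the 2 arrays of a group, orange is polysome RNA and blue is unfractionated RNA. In unfractionated RNA, Fasn sits at 647 and 434 in wild-type tBuHQ livers and at 2269 and 2289 in untreated wild-type livers, and Thrsp does not follow the other genes.

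In knockout livers no lipogenic gene fell with tBuHQ in unfractionated RNA. None of the 10 genes passed for tBuHQ against untreated in knockout liver, where limma called 0% of all probe sets and 1979 had an unadjusted p under 0.05. Of the 10 genes, 9 had a positive difference, with a median of 0.72, and 5 had an unadjusted p under 0.05: Elovl6 (1.28 ± 0.36), Scd1 (1.22 ± 0.38), Gpam (1.12 ± 0.35), Srebf1 (1.12 ± 0.34) and Acacb (0.97 ± 0.43). Their adjusted p-values were 0.53 to 0.648. The arrays of these 5 genes did not overlap between tBuHQ and untreated knockout livers, and those of the other 5 did. No share over all probe sets was determined to set beside this.

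Scd1 read 9742 and 10381 in knockout tBuHQ livers, against 3849 and 4816 in untreated knockout livers. Gpam read 1564 and 661 with tBuHQ, against 444 and 477 untreated, and Srebf1 read 2613 and 1586, against 1237 and 697. Scd1 was close on both treated arrays, whereas Gpam and Srebf1 were far higher on the first of them than on the second. Fasn read 1920.4 and 1227 in knockout tBuHQ livers, against 1393 and 883 in untreated knockout livers, and these ranges overlapped. Acly (2908 and 3915 with tBuHQ, against 3375 and 2954 untreated) and Acss2 (2388 and 3396, against 2548 and 2304) overlapped too. Thrsp read 5511 and 9419.7 with tBuHQ, against 11707 and 7738 untreated, a difference of -0.40 ± 0.28.

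The difference between genotypes in the tBuHQ change was tested directly. In unfractionated RNA it was positive and passed for 8 of the 10 genes: Gpam, Acacb, Fasn, Scd1, Elovl6, Srebf1, Acss2 and Acly. Of all probe sets tested, 3.09% passed in this contrast, 2.93% as positive and 0.163% as negative. The median of the 10 genes was 2.18 on the log2 scale, against 0.11 over all probe sets. Srebf1 (2.11 ± 0.49, adjusted p = 0.0305), Scd1 (2.52 ± 0.54, 0.0222) and Elovl6 (2.26 ± 0.51, 0.0277) passed here although they had not passed for tBuHQ in either genotype.

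Gpam had the largest of these differences, 3.21 ± 0.50 (adjusted p = 0.00996), followed by Acacb with 3.06 ± 0.60 (0.0163) and Fasn with 2.53 ± 0.48 (0.0143). Acss2 stood at 2.05 ± 0.46 (0.026) and Acly at 1.47 ± 0.35 (0.0348). Acaca (1.42 ± 0.60, adjusted p = 0.215) and Thrsp (-0.85 ± 0.40, adjusted p = 0.264) did not pass. The call for Acly was shared by 1 more of its probe sets, at 1.51 (0.0324), that for Elovl6 by its second, at 2.57 (0.025), and that for Acss2 by its second, at 2.02 (0.0181). Second probe sets of Gpam (2.81 ± 0.82, adjusted p = 0.0733) and Scd1 (2.21 ± 0.81, adjusted p = 0.151) had differences of similar size that did not pass. The third brightest Acly probe set, with 1.45 ± 0.39, did not pass either (adjusted p = 0.0579).

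These calls rest on few arrays. Leaving out any 1 of the 4 unfractionated wild-type arrays left none of the 5 falls with tBuHQ past the threshold, at differences of -1.34 to -2.41 and adjusted p-values of 0.0873 to 0.308. For the genotype difference, leaving out 1 of its 8 arrays left 0 to 3 of the 8 genes past it, except for the second knockout tBuHQ array, without which 7 passed. Without the first knockout tBuHQ array, 1 of the 8 genes still passed, Gpam with 2.59 (adjusted p = 0.0375), and the other 7 had differences of 1.69 to 2.57. Without the second untreated wild-type array none passed, with differences of 1.46 to 3.07 and adjusted p-values of 0.0787 to 0.153. Without the 4 arrays high in pancreatic markers, none of the 5 falls in wild-type liver and none of the 8 genotype differences passed. The values then were -1.42 to -2.41 and 1.61 to 3.21, with adjusted p-values of 0.0599 to 0.104 and 0.051 to 0.176.

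The 3 unfractionated arrays that stood apart were also the high arrays of several of these genes. Fasn, Acacb, Gpam, Elovl6 and Srebf1 were higher on each of the 3 than on any of the other 5, which held for 16.1% of all probe sets tested. Gpam read 1564 to 2312 on the 3 and 444 to 661 on the other 5, and Acacb read 187 to 268 and 33.6 to 83.9. Acaca, Acly, Scd1, Thrsp and Acss2 overlapped between these arrays. The 75th percentile of signal was 105 to 114 on the 3 and 83.7 to 88.9 on the other 5.

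Summed stellate and endothelial markers were also highest on these 3 arrays, and summed macrophage markers were not. Summed signals of the 5 stellate cell markers tested were 1545 and 849 in knockout tBuHQ, 755 and 537 in untreated knockout, 546 and 589 in wild-type tBuHQ and 1861 and 1639 in untreated wild-type unfractionated RNA. Of these 5, 3 passed as lower with tBuHQ in wild-type liver and all 5 as positive in the genotype difference of the tBuHQ change. Of all probe sets tested, 2.09% and 2.93% passed in these directions. The 7 endothelial markers summed to 1225 and 515, 546 and 467, 590 and 523, and 1347 and 1489 in the same 4 groups. Of these markers, 1 passed as lower and 2 as positive. The 7 macrophage markers summed to 2284 and 2002, 1868 and 2022, 2925 and 1791, and 2762 and 2706. Array 1 of wild-type tBuHQ thus had the highest sum, and 1 marker passed as lower and 2 as positive. Hepatocyte markers, of which 7 were tested, summed to 91308 to 125585, highest with tBuHQ in wild-type. The 3 adipocyte markers summed to 239 and 261 in knockout tBuHQ, 419 and 396 in untreated knockout, 279 and 302 in wild-type tBuHQ and 309 and 287 in untreated wild-type, and none passed in these contrasts. The part of these cell markers, and of the pancreatic ones, in the lipogenic differences was not tested.

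**Figure D2:**
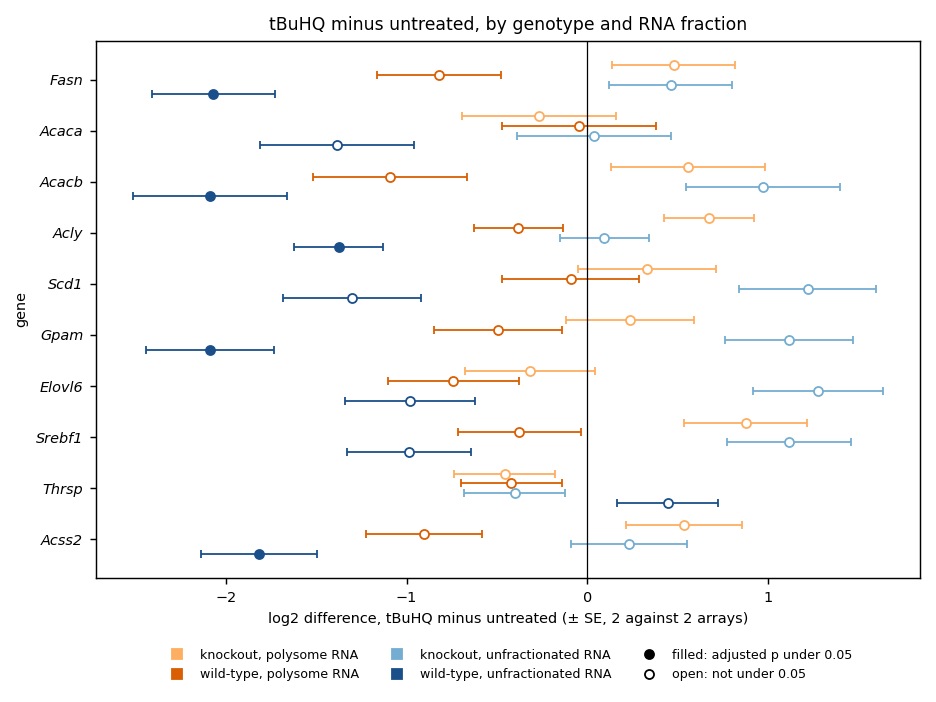
Log2 difference, tBuHQ minus untreated, with SE, for the 10 genes in both genotypes and fractions (2 against 2 arrays each). Filled circles passed an adjusted p of 0.05 and open circles did not. The filled circles are those of Fasn, Acacb, Acly, Gpam and Acss2 in wild-type unfractionated RNA, at -1.38 to -2.09.

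The probe sets of a gene mostly agreed where they were bright. Of the 25 probe sets, 24 passed the filter on dim ones, and the one that did not was a second Acacb probe set with a mean of 7.75. Over these 24, 9 were called lower with tBuHQ in wild-type unfractionated RNA and 11 were called positive in the genotype difference. Probe sets with means of 14.0 to 24.4 for Acly, 16.7 for Elovl6 and 16.8 for Acss2 lay at or under the highest signal of the absent spike-in control, 15.1, on 5 to 11 of the 16 arrays. A Thrsp probe set with a mean of 45.5 did so on 4. None of these dim probe sets of Acly, Elovl6 and Acss2 passed in any contrast named here, and they carry little information on level.

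**Figure D3:**
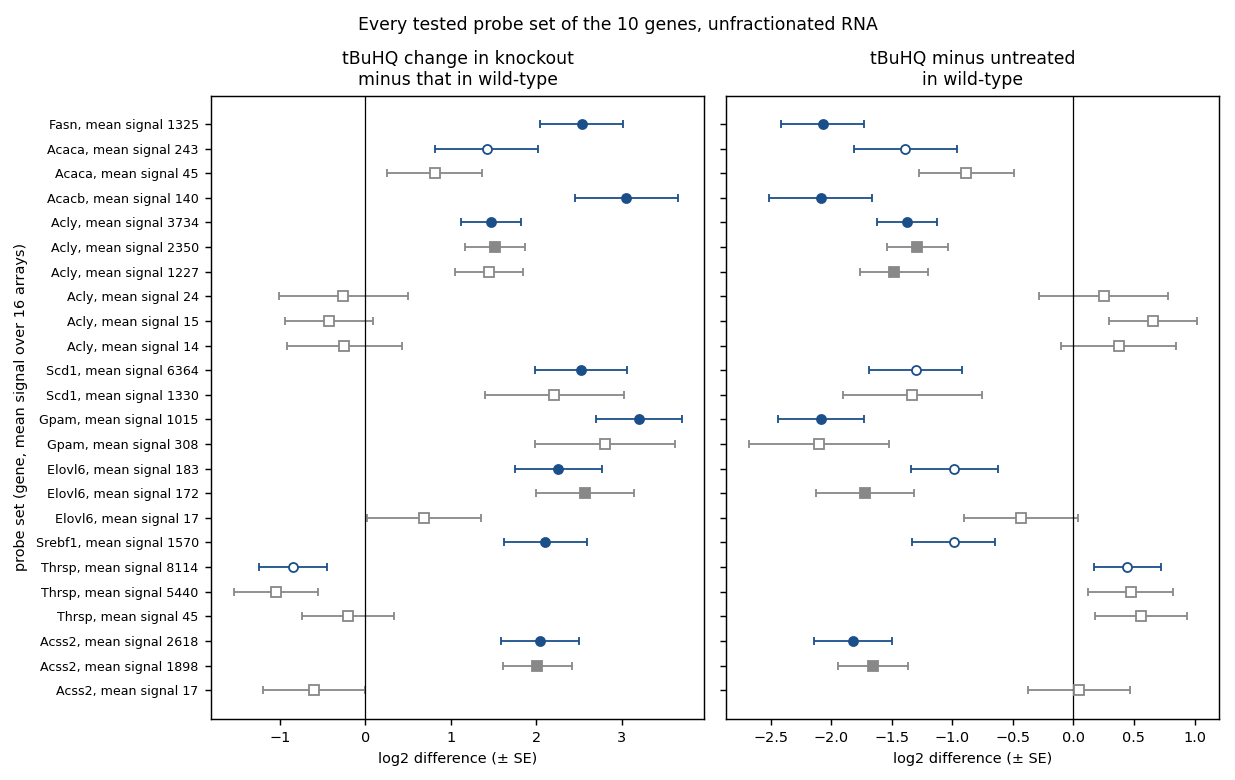
Log2 difference with SE for each of the 24 tested probe sets in unfractionated RNA. The left panel is the tBuHQ change in knockout minus that in wild-type, and the right panel is tBuHQ minus untreated in wild-type. Circles in blue are the brightest probe set of a gene, grey squares are others, and filled symbols passed an adjusted p of 0.05. Dim probe sets of Acly, Elovl6 and Acss2, with means under 25, lie at -0.60 to 0.69.

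On polysomes no lipogenic gene passed for tBuHQ in either genotype. In wild-type polysome RNA all 10 genes had negative differences, with a median of -0.46, and none passed in a contrast where 0.0074% of probe sets did (limma; 2139 had an unadjusted p under 0.05). Acacb read 146 and 55.5 in wild-type tBuHQ polysome RNA, against 291 and 156 in untreated wild-type, with -1.09 ± 0.43 (adjusted p = 0.557). Acss2 read 2267 and 1490 with tBuHQ, against 4236 and 2818 untreated, with -0.90 ± 0.32 (adjusted p = 0.527), and Fasn read 1111 and 743, against 2197 and 1190.2, with -0.82 ± 0.34 (adjusted p = 0.588). These 3 genes, Elovl6 and Thrsp had arrays that did not overlap, and the untreated pairs of Fasn, Acacb and Acss2 were wide. How many of all probe sets did not overlap was not determined.

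The array with the high Gapdh ratio is one of these. The second Gpam probe set read 306 on array 1 and 34.5 on array 2 of wild-type tBuHQ polysome RNA, and Elovl6 at its brightest read 169 and 80.3. Leaving out the first array of that group gave 1 call, Acacb. The part of this ratio in these values was not tested.

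In knockout polysome RNA 7 of the 10 differences were positive, with a median of 0.41. None passed, and limma called 0% of all probe sets, with 1381 at an unadjusted p under 0.05. Srebf1 read 1571 and 2190.0 in knockout tBuHQ polysome RNA, against 1100.0 and 914 in untreated knockout, with 0.88 ± 0.34 (adjusted p = 0.918). Acly read 3941 and 5437 with tBuHQ, against 2689 and 3117 untreated, with 0.67 ± 0.25 (adjusted p = 0.892). Arrays did not overlap for 5 of the 10 genes, among them Srebf1, Acly and also Thrsp, which was negative (-0.46 ± 0.28). The share over all probe sets was not determined.

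The genotype difference of the tBuHQ change in polysome RNA was positive for 8 of the 10 genes, and none passed in a contrast with 0% of probe sets called by limma and 1272 at an unadjusted p under 0.05. Acacb had 1.65 ± 0.60, Acss2 1.44 ± 0.46, Fasn 1.30 ± 0.48, Srebf1 1.25 ± 0.49 and Acly 1.06 ± 0.35, each with an adjusted p of 0.985 and an unadjusted p of 0.00632 to 0.0205. Acaca (-0.22 ± 0.60) and Thrsp (-0.04 ± 0.40) were the negative ones.

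Whether the treatment moved the mRNAs between fractions was tested as the polysome minus unfractionated difference in the tBuHQ change. In wild-type liver 9 of 10 genes were positive, the highest Gpam with 1.59 ± 0.50 (adjusted p = 0.171), Acaca with 1.34 ± 0.60 (0.332) and Fasn with 1.25 ± 0.48 (0.257), and Thrsp was at -0.87 ± 0.40 (0.343). In knockout liver 7 of 10 were negative, the lowest Elovl6 with -1.59 ± 0.51 (adjusted p = 1). None passed in either genotype, where limma called 0% of probe sets, with 3776 and 828 at an unadjusted p under 0.05 in wild-type and knockout.

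Between the fractions themselves, 1 of the 10 genes passed at its brightest probe set in wild-type tBuHQ livers and 1 in untreated knockout livers. These counts lie near the shares of all probe sets given with each. Acly was higher in polysome RNA of wild-type tBuHQ livers, at 3289 and 4598, than in unfractionated RNA of the same group, at 1883 and 1782, with 1.08 ± 0.25 (adjusted p = 0.0112). In that contrast 11.2% of probe sets passed, 7.75% as higher and 3.46% as lower. The third brightest Acly probe set passed with 1.04 (adjusted p = 0.0252), and the second brightest did not, with 0.79 ± 0.25 (adjusted p = 0.0546). Elovl6 was higher in polysome RNA of untreated knockout livers, at 228 and 212, than in unfractionated RNA, at 76.5 and 72.2, with 1.39 ± 0.36 (adjusted p = 0.0313), in a contrast with 6.72% of probe sets called, 4.37% as higher and 2.34% as lower. The second Elovl6 probe set had 0.68 ± 0.40 there (adjusted p = 0.368). The Acly call held without the first polysome array (1.32, adjusted p = 0.0044) and was lost without any 1 of its other 3 arrays (0.84 to 1.12, adjusted p = 0.0578 to 0.0796). The Elovl6 call was lost without any 1 of its 4 arrays (1.34 to 1.44, adjusted p = 0.145 to 0.17). With the liver pool as a block across fractions, Acly still passed (adjusted p = 0.0125), Elovl6 did not (adjusted p = 0.0602), and the counts of called genes were 3 in wild-type tBuHQ and 0 in untreated knockout livers, rather than 1 each. The labels do not say whether arrays of 1 number in both fractions share livers, but the pancreatic markers were high on array 1 in both fractions of these groups and low on array 2.

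Thrsp ran the other way in wild-type tBuHQ livers. Its second bright probe set was lower in polysome RNA of wild-type tBuHQ livers by 1.20 (adjusted p = 0.0371), and its brightest had -0.83 ± 0.28 (adjusted p = 0.0707). The dim Thrsp probe set was lower there by 2.11 (0.00277) and in untreated knockout livers by 1.69 (0.0152). Its polysome means in these groups, 5.65 and 12.4, lay under the highest signal of the absent spike-in control, 15.1. In untreated knockout livers the brightest Thrsp probe set had -0.02 ± 0.28 (adjusted p = 0.976) and the second -0.0024 ± 0.35 (adjusted p = 0.998). No gene of the 10 passed at its brightest probe set in knockout tBuHQ livers, with 0.6% of probe sets called, 0.118% as higher (limma, 3289 at an unadjusted p under 0.05), or in untreated wild-type livers, with 0.392% called (2763). The arrays with high pancreatic markers are in both fractions of wild-type tBuHQ and untreated knockout livers. Polysome array 2 of wild-type tBuHQ also had the Gapdh ratio of 5.60. The part of this ratio in the differences between fractions was not tested. In wild-type tBuHQ polysome RNA 4 of 7 hepatocyte markers passed as lower, by 0.64 to 0.88.

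Without tBuHQ, knockout livers had lower levels of several of these mRNAs in unfractionated RNA. Gpam, Acacb, Elovl6 and Srebf1 fell, 4 of the 10 genes, in a contrast where 3.99% of probe sets passed, 3.77% as lower and 0.226% as higher. The median of the 10 was -0.90, against -0.08 over all probe sets. The untreated wild-type arrays enter this contrast, the tBuHQ contrast in wild-type liver and the genotype difference of the tBuHQ change, so those results are not independent of each other.

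Gpam read 444 and 477 in untreated knockout livers, against 1911 and 2312 in untreated wild-type livers, a fall of 2.15 ± 0.35 (adjusted p = 0.0109). Its second probe set gave -2.07 ± 0.58 (adjusted p = 0.0568). Elovl6 read 76.5 and 72.2 in untreated knockout, against 266 and 330.1 in untreated wild-type, a fall of 1.79 ± 0.36 (adjusted p = 0.0156), and its second probe set fell by 1.91 (adjusted p = 0.0189). The Elovl6 groups were tight and well separated. Acacb read 47.9 and 66.5, against 228 and 268, a fall of 1.86 ± 0.43 (0.0258), and Srebf1 read 1237 and 697, against 2192 and 2543, a fall of 1.33 ± 0.34 (0.0421). Fasn read 1393 and 883 in untreated knockout, against 2269 and 2289 in untreated wild-type, and its -1.03 ± 0.34 did not pass (adjusted p = 0.102). Leaving out any 1 of the 4 arrays compared, or the 4 arrays high in pancreatic markers, left no gene past the threshold. In this contrast 3 of 5 stellate markers, 2 of 7 endothelial markers and 1 of 7 macrophage markers also passed as lower in knockout livers. Among them were Reln (-2.13 ± 0.42, adjusted p = 0.0141), Ptprb (-2.09 ± 0.45, 0.0195) and Csf1r (-1.56 ± 0.41, 0.045). The part of these markers in the lipogenic differences was not tested. By the column names of the z score table, this would be the contrast of tBuHQ livers.

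With tBuHQ the genotype difference pointed the other way in unfractionated RNA. Of the 10 genes 9 were higher in value in knockout tBuHQ than in wild-type tBuHQ livers, but none passed in a contrast with 0.0037% of probe sets called (limma, 1731 at an unadjusted p under 0.05). Scd1 read 9742 and 10381 in knockout tBuHQ, against 2457 and 3613 in wild-type tBuHQ, with 1.75 ± 0.38 (adjusted p = 0.402). Fasn had 1.51 ± 0.34 (0.422), Acss2 1.28 ± 0.32 (0.49), Acacb 1.20 ± 0.43 (0.672) and Gpam 1.05 ± 0.35 (0.628). The arrays did not overlap for 9 of the 10 genes, all but Elovl6, and the share over all probe sets was not determined. Thrsp was the negative one, at -0.51 ± 0.28.

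In polysome RNA no genotype difference passed. With tBuHQ, 0.0037% of probe sets were called (limma, 2202 at an unadjusted p under 0.05) and the 10 genes ranged over -0.18 to 0.90. Untreated, 0.0037% were called (1478) and 6 genes were negative, among them Gpam (-0.91 ± 0.35, adjusted p = 0.835), Acss2 (-0.84 ± 0.32, 0.835) and Acly (-0.81 ± 0.25, 0.705). Gpam read 676 and 759 in untreated knockout polysome RNA, against 1719.7 and 1071 in untreated wild-type, so the gap seen in unfractionated RNA had the same direction and a smaller value.

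**Figure D4:**
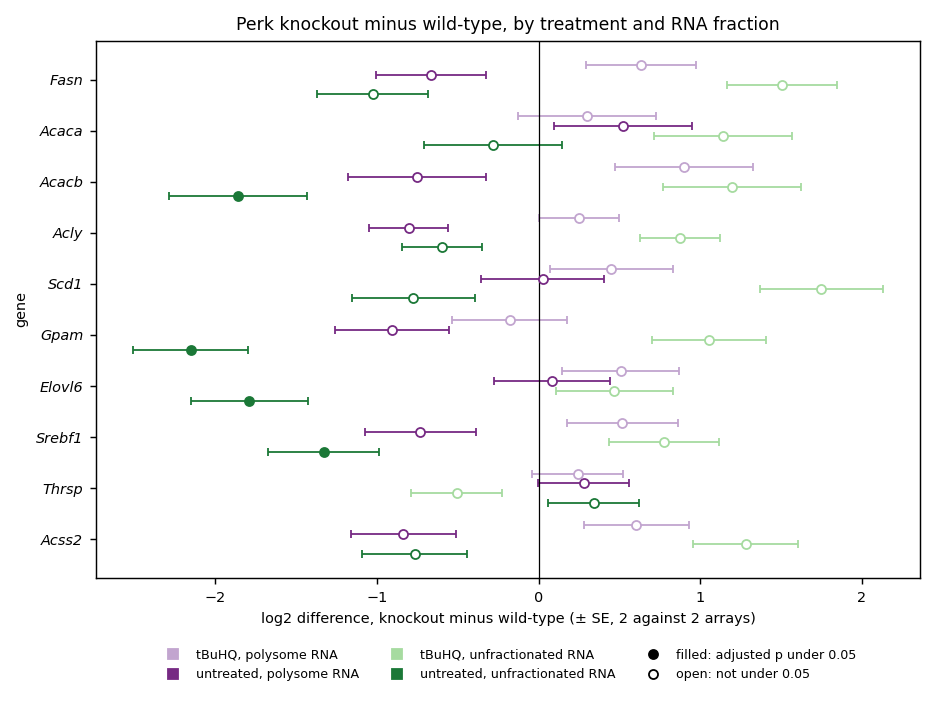
Log2 difference, Perk knockout minus wild-type, with SE, for the 10 genes under both treatments and in both fractions (2 against 2 arrays each). Filled circles passed an adjusted p of 0.05. Filled circles are seen for Acacb, Gpam, Elovl6 and Srebf1 in untreated unfractionated RNA, at -1.33 to -2.15, while the values with tBuHQ lie to the right of them.

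Seen as an order of levels in unfractionated RNA, untreated wild-type livers were highest for 8 of the 10 genes, all but Scd1, highest in knockout tBuHQ, and Thrsp, highest in wild-type tBuHQ. By the column names of the z score table the treatments in this order change places, so that wild-type tBuHQ livers would be highest for the 8. Wild-type tBuHQ livers were lowest for Fasn, Acaca, Acacb, Acly, Scd1 and Acss2, and untreated knockout livers for Gpam, Elovl6 and Srebf1. For Fasn the order of group means was untreated wild-type (2279 ± 14.1, SD of 2 arrays), knockout tBuHQ (1574 ± 491), untreated knockout (1138 ± 360) and wild-type tBuHQ (541 ± 151), in which the middle pair overlapped. For Gpam it was untreated wild-type (2112 ± 283), knockout tBuHQ (1113 ± 639), wild-type tBuHQ (483 ± 26.2) and untreated knockout (460.4 ± 23.8), in which the last pair overlapped. For Acacb the last pair, untreated knockout (57.2 ± 13.2) and wild-type tBuHQ (47.6 ± 19.8), overlapped as well. For Srebf1 only the gap between knockout tBuHQ (2099 ± 726) and wild-type tBuHQ (1204 ± 318) separated neighbours.

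In polysome RNA the order was less clear. By group means, untreated wild-type was highest for Fasn, Acacb, Acly, Gpam and Acss2, and wild-type tBuHQ was lowest for 7 genes. Array 2 of wild-type tBuHQ polysome RNA is the one with the Gapdh ratio of 5.60. The part of this ratio in the lowest places was not tested. The highest array exceeded the lowest by 2.12 times (Thrsp) to 7.99 times (Acacb) in unfractionated RNA, and by 2.23 times (Acly) to 5.24 times (Acacb) in polysome RNA. Acacb thus varied most in both fractions, counted in signal without the added 16.

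Across the 16 arrays the genes moved to different degrees together. The 36 pairs without Thrsp had Pearson correlations of 0.22 to 0.87 in log2 signal, with a median of 0.65, and the 9 pairs with Thrsp had -0.48 to -0.05. Acacb and Gpam were the closest pair, at 0.87. Against the mean of the other 9 genes, Acacb had 0.89, Fasn 0.86, Acss2 0.85, Gpam 0.83, Srebf1 0.74, Acly 0.69, Elovl6 0.62, Scd1 0.57, Acaca 0.53 and Thrsp -0.39. These values describe 16 arrays that share 8 groups, so they hold the group differences already given. Within the 8 unfractionated arrays Thrsp stood at -0.67 and within the 8 polysome arrays at 0.24.

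**Figure D5:**
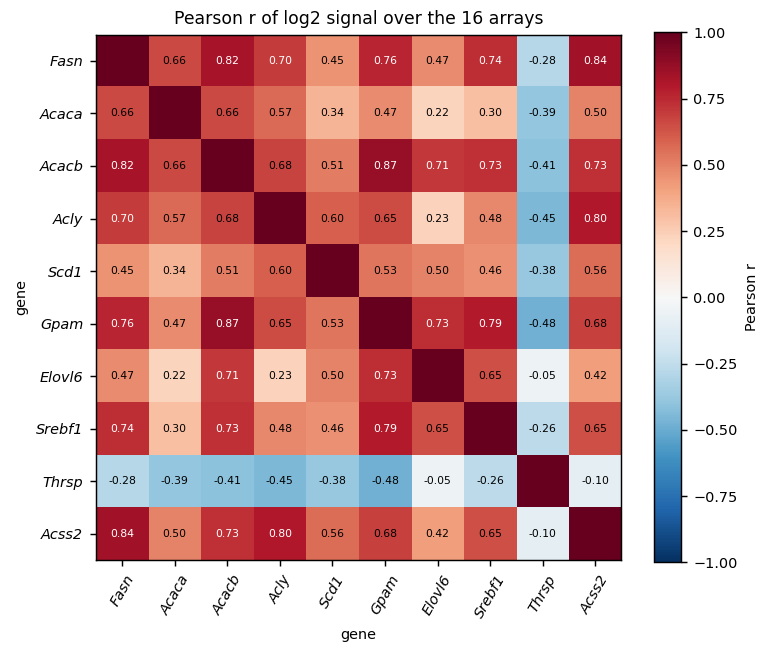
Pearson correlation of log2(signal + 16) between the 10 genes over the 16 arrays, each gene at its brightest probe set. Colour runs from -1 in blue to 1 in red. The 36 pairs without Thrsp lie at 0.22 to 0.87, and the Thrsp row and column hold the negative values.

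Of 12626 other genes, those whose log2 signal over the 16 arrays was most like the mean profile of the 10 were Tmprss6 (r = 0.893), a hepatocyte protease that lowers hepcidin, Sema4a (0.892), a semaphorin, Atg9a (0.885), an autophagy membrane protein, and Itgb5 (0.885), an integrin subunit. Pdxk (0.867), the pyridoxal kinase, Slco2b1 (0.861), an organic anion carrier, Pgd (0.859), an enzyme of the pentose phosphate pathway, and Coq8a (0.848), a protein of coenzyme Q synthesis, followed. The arrays and groups are shared by all of these values.

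Of 20 further genes known as targets of SREBP-1 or ChREBP, 16 were tested. With tBuHQ 1 of the 16, Pgd, fell in unfractionated RNA of wild-type livers, at 540 and 479 with tBuHQ, against 1168 and 1037 untreated (-1.09 ± 0.27, adjusted p = 0.0481). The median of the list was -0.15, and 2.09% of all probe sets passed as lower. The genotype difference of the tBuHQ change passed as positive for 2, beside 2.93% of all probe sets, with a list median of 0.58. They were the desaturase Fads1 (1.83 ± 0.39, adjusted p = 0.0221) and the acyl-CoA synthetase Acsl5 (1.38 ± 0.34, 0.0389). Both were lower in untreated knockout than in untreated wild-type livers, Fads1 at 1338 and 956, against 3121 and 2756 (-1.36 ± 0.28, 0.016), and Acsl5 at 2027 and 1807, against 3586 and 3555 (-0.89 ± 0.24, 0.0472). None of the 16 passed in the other contrasts.

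Among 26 genes that process SREBP or act upstream of it, 25 were tested. In unfractionated RNA 5 passed as lower with tBuHQ in wild-type livers, and 8 as positive in the genotype difference of the tBuHQ change. In untreated knockout livers 7 passed as lower than in untreated wild-type livers. The list medians were -0.44, 0.54 and -0.61, and 2.09%, 2.93% and 3.77% of all probe sets passed in these directions. Insr, the insulin receptor, read 78.1 and 87.4 in wild-type tBuHQ livers, against 393 and 408 in untreated wild-type livers (-2.08 ± 0.36, adjusted p = 0.0214), and its genotype difference was 3.22 ± 0.51 (0.00996). Scap, the escort of SREBP to the Golgi, read 282 and 249 with tBuHQ, against 914 and 975 untreated (-1.77 ± 0.29, adjusted p = 0.0196), with a genotype difference of 2.81 ± 0.41 (0.00996).

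Rxra, the partner of many nuclear receptors, read 131 and 126 with tBuHQ, against 576 and 636 untreated in wild-type livers (-2.10 ± 0.42, adjusted p = 0.0257). Irs1, an adaptor of the insulin receptor, read 198 and 177, against 528 and 553 (-1.46 ± 0.27, 0.0222). In untreated knockout livers Insr (84.4 and 94.5), Scap (302 and 317) and Rxra (182 and 176) were also lower than in untreated wild-type livers, by 1.98, 1.56 and 1.67. Mbtps2, a protease that cleaves SREBP, read 19.5 and 22.0 in untreated knockout, against 75.4 and 108 in untreated wild-type (-1.53 ± 0.29, adjusted p = 0.0133). Between fractions, 6 of the 25 passed as higher and 2 as lower in polysome RNA of wild-type tBuHQ livers. In untreated knockout livers 5 passed as higher. Beside these, 7.75%, 3.46% and 4.37% of all probe sets passed in the same directions. Irs1 was among the higher genes in both groups, with 1.94 ± 0.27 (0.0008) and 1.68 ± 0.27 (0.00303). Irs1 was also higher in polysome RNA of knockout tBuHQ livers, by 1.28 (0.0418).

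A list of 15 genes covered glycerolipid synthesis, lipid droplets and lipoprotein loading, and all were tested. None passed in unfractionated RNA of wild-type livers with tBuHQ, where 2.22% of all probe sets did. Mttp, which loads lipid onto lipoproteins, had a genotype difference of 1.31 ± 0.32 (adjusted p = 0.0387) and was lower in untreated knockout livers, at 751 and 692, against 1194 and 1416 in untreated wild-type (-0.84 ± 0.23, 0.0495). It was the only one of the 15 to pass in these contrasts, beside 2.93% of all probe sets as positive and 3.77% as lower. In polysome RNA of wild-type tBuHQ livers Lpin2, a phosphatidate phosphatase, was higher by 1.10 (0.0476) and Agpat3, an acyltransferase, lower by 0.91 (0.0252) than in unfractionated RNA. Of all probe sets, 7.75% passed as higher and 3.46% as lower there.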

How the data were processed

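Liver RNA was hybridised to 16 Affymetrix mouse arrays, 2 for each of 8 groups. The deposited values are signal intensity on a linear scale, which the authors had scaled to a 2% trimmed mean of 150 on each array, as the values showed. How probe signals were summarised is not given in the sources used. A second deposited table from the authors holds a z score per array for 18697 probe sets and was used only to check the labels, where each of the 16 columns matched an array of the opposite treatment title (r with the best match 1, and at most 0.959 with the array of the same name).

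The platform annotation named the probe sets, 34958 with 1 gene symbol, 932 with several and 9211 with none, and 34754 symbols were updated through Entrez identifiers with RefSeq's GRCm38.p6 gene table. Probe sets were kept where the mean signal reached the 40th percentile of non-control probe sets, 12.3, which left 27022. Log2(signal + 16) was fitted with limma 3.58.1 in R 4.3.3 as 8 group means over all 16 arrays (eBayes with an intensity trend, with residual degrees of freedom of 8 and prior ones of 7.49). p-values of each of 16 contrasts were adjusted by Benjamini and Hochberg over all probe sets tested, and called at 0.05. A gene was read at the probe set with the highest mean. The number of arrays limits the precision.

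The members, the gene lists and the tests were chosen with earlier results of these data known. Named genes were all members, up to 4 called genes of a list in each contrast by size of the difference, the 8 genes most correlated with the members' mean profile (clone and predicted names left out), Eif2ak3, Ddit3 and the control probe sets. Lists shared Lpin1, Insig1, Mlxipl and Cidec. The erythroid list had 1 tested member. The labels number the replicates alike in all groups but give no shared animal or day. The 4 pairs of polysome and unfractionated arrays with 1 genotype, treatment and number correlated in their deviations from group means at 0.0659 to 0.259. Of these 4, 1 was over 0.1. The 24 other group pairs lay at -0.222 to 0.272, with 5 over 0.1, so these correlations cannot tell paired from unpaired arrays. The main fit did not take the numbers to pair the arrays, although pancreatic marker sums were high on array 1 in both fractions of 2 groups. Alternatives were another pseudocount, filter, normalization, summary per gene, variance trend, set of arrays or block, and leaving out each array. An alternative without the 4 arrays high in pancreatic markers was chosen after seeing the data.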

Additional observations from a re-analysis of the deposited data

Results flagged for a closer look

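The tBuHQ change differed between knockout and wild-type livers in unfractionated RNA for 11 probe sets of 8 genes, by the interaction term of limma's fit at an adjusted p of 0.05, a call made for 3.09% of all probe sets tested. As log2 differences of the change, knockout minus wild-type, Gpam had 3.21, Acacb 3.06, Fasn 2.53, Scd1 2.52 and Srebf1 2.11. Elovl6 had 2.26 and 2.57 at its 2 probe sets, Acss2 2.05 and 2.02, and Acly 1.47 and 1.51. Fasn, Acacb, Gpam, Elovl6 and Srebf1 had their highest unfractionated values on knockout tBuHQ array 1 and on both arrays of untreated wild-type, the 3 arrays that also stood apart from the other 5 over all probe sets. Without the first knockout tBuHQ array only Gpam passed among the 10 genes.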

How the results depend on the processing

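None of the 19 member values past the threshold changed sign under any alternative run. Among alternatives that leave out no single array, they stayed past it in 179 fits and lost it in 30, and among fits without 1 array in 211 and 93, where a lone array left in a group is assumed to vary like the other groups. Counts of called genes moved as follows. Without the variance trend the genotype difference of the tBuHQ change in unfractionated RNA had 5 called genes rather than 8. Without the 4 arrays high in pancreatic markers the counts were 0 rather than 5 (tBuHQ, wild-type unfractionated), 8 (genotype difference of the change), 4 (untreated genotype difference, unfractionated), 1 (polysome against unfractionated, untreated knockout) and 1 (the same, wild-type tBuHQ), with fewer arrays. Quantile normalization over all arrays gave 0 and 2 for the last pair. The cause was not tested.

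The replicate number as a block gave 3 called genes for polysome against unfractionated RNA in wild-type tBuHQ livers, and the liver pool as a replicate block gave 3 there and 0 in untreated knockout livers. The blocks moved no other count of calls by over 1.5 times. Leaving out each array in turn, the counts ranged over 0 to 6 for tBuHQ in wild-type unfractionated RNA and 0 to 8 for the genotype difference of that change. They ranged over 0 to 4 for the untreated genotype difference, 0 to 1 for polysome against unfractionated RNA in untreated knockout and 0 to 3 in wild-type tBuHQ livers, and 0 to 1 for tBuHQ in wild-type polysome RNA and for the genotype difference there. The counts of 0 for tBuHQ in wild-type and for the untreated genotype difference came from leaving out any of the 4 arrays compared. With 2 arrays a group, the size of a difference of dim genes, and any difference smaller than about its own SE, is poorly measured.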

Other observations

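Of 19 genes of fatty acid oxidation, the opposing pathway, 16 were tested. With tBuHQ in wild-type unfractionated RNA only 1 of the 16 passed, as lower, beside 2.09% of all probe sets. In the genotype difference of the tBuHQ change 1 passed, as positive, beside 2.93% of all probe sets. Both calls were those of Ppara, the nuclear receptor that drives the pathway. In wild-type liver Ppara read 399 and 243 with tBuHQ, against 884 and 1036 untreated (-1.57 ± 0.34, limma, adjusted p = 0.0321). Its genotype difference of the tBuHQ change was 2.14 ± 0.48 (0.0275). The list medians were 0.16 for tBuHQ in wild-type liver and -0.33 for the genotype difference, beside -1.38 and 2.18 for the 10 lipogenic genes and 0.44 and -0.33 for the hepatocyte markers, and no test compared the lists. Ppara itself had the signs of the lipogenic medians.

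Ppara was also higher in polysome than in unfractionated RNA, by 2.13 ± 0.34 (adjusted p = 0.00303) in untreated knockout livers, at 1847 and 1728 against 448 and 349, and by 2.40 ± 0.34 (0.000878) in wild-type tBuHQ livers. Cpt1a, the enzyme that commits fatty acids to mitochondria, was higher in wild-type tBuHQ polysome RNA, at 2054 and 1832 against 861 and 1010.1 in unfractionated RNA (1.04 ± 0.31, 0.0431). In untreated knockout livers 5 of the 16 passed as lower on polysomes, beside 2.34% of all probe sets. Among them were the acyl-CoA dehydrogenase Acadvl, at 3484 and 3479 against 6990.4 and 6548 (-0.96 ± 0.26, 0.0405), and the electron carrier Etfdh (-0.93 ± 0.22, 0.0216).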
